A study of Rattus norvegicus with 16 samples.

Results

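The L4/L5 dorsal root ganglia (DRG) of the uninjured side in adult rats with a spared nerve injury (SNI) were compared with the DRG of adult rats that had only sham surgery, across every gene on the array. The members were chosen by GEO's experimental group: 3 arrays of Adult Contralateral and 3 arrays of Adult Sham, 6 of the 16 arrays of the series. The Adult Contralateral ganglia came from the unoperated side of male Sprague-Dawley rats, 2 months old, in which the common peroneal and tibial branches of the sciatic nerve had been tied and cut in the opposite thigh, with the sural branch spared. The Adult Sham ganglia came from rats of the same strain, sex and age, on the side on which the same branches were exposed and left uncut. All were taken 7 days after surgery, and each array carried RNA pooled from 6 DRG of 3 rats, so every p below measures the spread between pools and not between animals. The 3 adult SNI ipsilateral pools, whose values are given beside some genes, came from the same SNI group, and the labels do not say which pools share rats. The groups differ in the operation and also in the side, since the sham ganglia serve the limb that was opened and the contralateral ganglia the limb that was not, and these effects cannot be told apart. No array of rats without any surgery was analysed here. Arrays of young rats, operated on at 10 days of age and taken at 17 days, entered the fit and are compared near the end.

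A DRG holds the cell bodies of sensory neurons, each wrapped by satellite glia, together with Schwann cells, blood vessels, a connective tissue sheath and macrophages. When a peripheral axon is cut, its neuron switches on a set of injury genes, among them the neuropeptides galanin, VIP and NPY, and macrophages and MHC class II molecules increase around it. A contralateral ganglion is often used as an internal control and sham surgery as an external one, and the question put to these arrays is whether those controls hold the same RNA.

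The values are log2 GC-RMA signals, so a difference of 1 is a doubling of the background-corrected signal. After removal of 57 controls, 31042 Affy_IDs (the probe sets of the array) were tested with limma, all 16 arrays in 1 fit, and 20826 of them carried the symbol of 1 gene. Array medians were 5.24 to 5.25 in contralateral and 5.20 to 5.39 in sham ganglia. The neuronal markers Nefh (heavy neurofilament) and Scn1a (a sodium channel of large neurons) lay between 14.82 and 15.01 and between 11.01 and 11.23 in contralateral arrays, and between 14.68 and 14.88 and between 9.87 and 10.95 in sham arrays. The arrays differed in tissue that is not ganglion: the mean over 18 skeletal muscle genes was 8.45, 6.12 and 9.20 in contralateral replicates 1 to 3 and 9.49, 4.54 and 11.89 in sham replicates 1 to 3. The mean over 7 blood genes was 6.58, 6.01 and 7.77 in contralateral and 7.58, 6.06 and 7.94 in sham arrays. Sham replicate 2 was the lowest of the sham arrays on both lists, and over the Affy_IDs below sham at unadjusted p under 0.05 it also lay nearest to the contralateral mean (median difference of -0.24, against -0.89 for sham replicate 1 and -0.64 for sham replicate 3). Among the young arrays, which add to the estimate of spread, young SNI ipsilateral replicate 2 had a mean of 8.01 over 15 genes of central glia and central neurons, against 3.33 to 3.67 in all other arrays of both ages. Some young arrays also went against their labels in injury genes: Atf3, the transcription factor that marks axotomised neurons, had 9.06 and 4.87 in the arrays labelled young contralateral and 9.49, 11.00 and 7.75 in those labelled young sham. The labels were kept, and every young value below depends on them.

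No Affy_ID passed the adjusted threshold between contralateral and sham ganglia, and the smallest adjusted p from limma was 0.98. At unadjusted p under 0.05 the limma fit gave 198 Affy_IDs higher in contralateral (0.638% of those tested) and 427 lower (1.38%), together 2.01%, where the threshold passes 5% on average if no Affy_ID differs. The median standard error of a log2 difference was 0.17 and the median half-width of its 95% confidence interval 0.38. Larger differences were mostly on the low side: 84 Affy_IDs were higher by a log2 of 1 or more and 246 were lower by as much, of which 13 and 90 were at unadjusted p under 0.05. The 3 contralateral arrays lay above all 3 sham arrays for 831 Affy_IDs (2.68%) and below them for 618 (1.99%). These splits moved with the fit and the scaling. With the 6 arrays alone 452 were higher and 405 lower at unadjusted p under 0.05, and without sham replicate 3 the counts were 893 higher and 587 lower. After quantile normalization 385 Affy_IDs were higher and 446 lower at unadjusted p under 0.05, with 1852 above and 876 below without overlap. With 3 arrays against 3, an exact two-sided permutation test cannot go below p = 0.1 for a single gene. Over 14217 genes, each taken at its Affy_ID with the highest mean, 84 (0.591%) were higher and 280 (1.97%) lower at unadjusted p under 0.05, and the arrays of 700 genes (4.92%) did not overlap, 293 (2.06%) with contralateral above and 407 (2.86%) with contralateral below. Of these genes 6855 had a difference above 0 and 7342 below 0, with a median of -0.01. The gene lists below are read against these shares, and none of their differences passed the adjusted threshold.

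**Figure D1:**
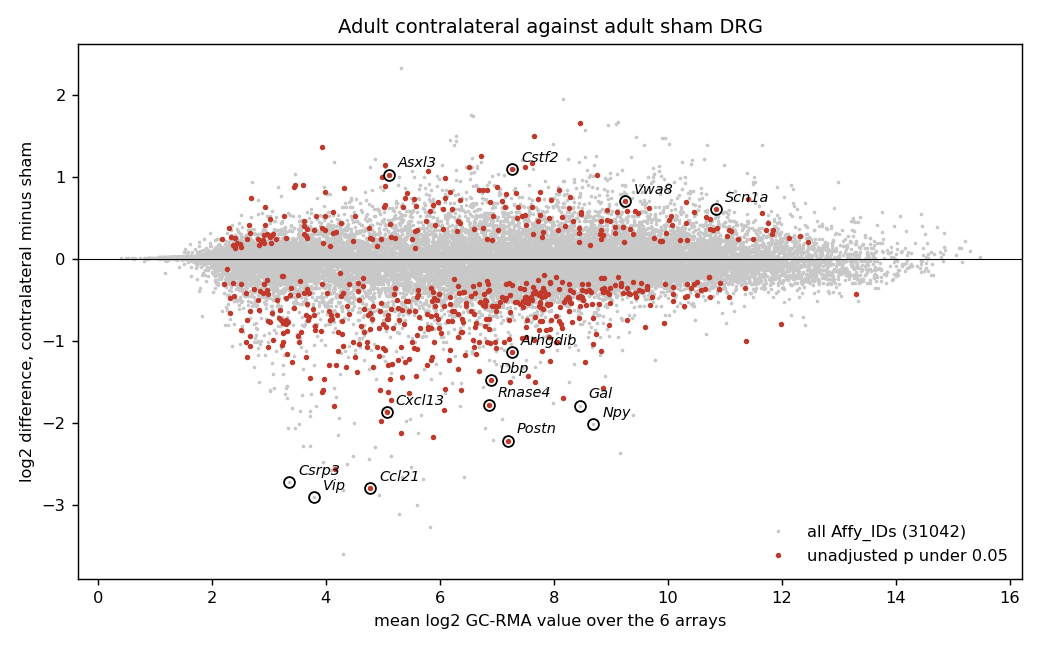
Log2 difference between adult contralateral and adult sham arrays (vertical axis) against the mean log2 GC-RMA value over the 6 arrays (horizontal axis), 1 point for each of 31042 Affy_IDs, red where unadjusted p was under 0.05 in the limma fit. Ccl21, Csrp3 and Vip lie at -2.80, -2.73 and -2.91, and the widest differences are below 0.

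Some genes of injured sensory neurons had all contralateral arrays below all sham arrays, and the SNI side far above both, while other genes of the list lay near 0. Vip (1377146_at), the neuropeptide VIP, had values of 2.54, 1.89 and 2.59 in contralateral arrays against 4.62, 6.37 and 4.76 in sham arrays. In the SNI ipsilateral arrays it had 11.29, 11.30 and 10.93. Contralateral and sham arrays did not overlap, and all 3 SNI arrays lay above both. Gal (1387088_at), galanin, a neuropeptide that sensory neurons make after axon damage, had 7.43, 7.74 and 7.50 in contralateral against 9.52, 9.63 and 8.89 in sham arrays, with 12.93, 13.65 and 13.64 in SNI arrays. Csrp3 (1398243_at), muscle LIM protein, which is also made by regenerating sensory neurons, had 1.95, 2.03 and 2.00 in contralateral against 5.27, 4.72 and 4.19 in sham arrays, with 8.87, 9.83 and 9.38 in SNI arrays. The groups did not overlap for either gene, and Csrp3 was low in contralateral replicate 3, whose muscle list mean was 9.20. The part of admixed muscle in the Csrp3 values was not tested. The contralateral values of Csrp3 and Vip lie among the lowest of the array, so the size of these differences is not exact. Npy (1387154_at), neuropeptide Y, had 6.14, 8.09 and 8.83 in contralateral against 10.59, 9.41 and 9.11 in sham arrays, with 13.67, 14.33 and 14.29 in SNI arrays. The highest contralateral array of Npy, replicate 3, lay close to the lowest sham array, and without contralateral replicate 1 the difference was -1.24.

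The log2 difference, contralateral minus sham, was -2.91 for Vip (SE 1.6, unadjusted p = 0.0883 in limma), -1.79 for Gal (SE 1.0, unadjusted p = 0.1 in limma), -2.73 for Csrp3 (SE 1.6, unadjusted p = 0.105 in limma) and -2.02 for Npy (SE 1.2, unadjusted p = 0.109 in limma). The spread behind these errors includes the young arrays, in which the same genes varied widely within a group: Vip had 9.28 and 1.87 in the young contralateral arrays, 8.02 and 11.29 in young SNI arrays, and 10.03, 11.52 and 8.09 in young sham arrays. With the spread taken from the 9 adult arrays alone, the unadjusted p from limma was 0.000331 for Vip, 0.000186 for Gal, 4.02e-05 for Csrp3 and 0.0229 for Npy, and the smallest adjusted p of any Affy_ID was 0.473. That fit takes contralateral and SNI ipsilateral pools as independent, and with pools of equal number as a random block the unadjusted p from limma was 0.000493, 0.000208, 6e-05 and 0.0247 for the same genes. With the 6 contralateral and sham arrays alone the unadjusted p from limma was 0.00229, 0.000356, 0.000131 and 0.0513 for the same genes, and the smallest adjusted p of any Affy_ID was 0.801.

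In the list of 32 genes of neuronal injury and regeneration, 13 differences were above 0 and 19 below, 8 genes had all contralateral arrays below all sham arrays and 0 had them above, where 4.92% of all genes did not overlap and 2.86% lay below. Besides the 4 genes above these were Flrt3, a membrane protein of growing neurites, the stress gene Gadd45a, and Ankrd1 and Sprr1a, both known from regenerating neurons. Their log2 differences were -0.53, -0.31, -0.59 (-0.33 without sham replicate 3) and -0.36, and the nearest arrays of Sprr1a were 2.30 in contralateral and 2.31 in sham. None of the 32 was at unadjusted p under 0.05 in the limma fit of 16 arrays, while 8 were, all lower, with the spread from the 9 adult arrays (2.45% of all genes were lower by that fit and 0.612% higher). Jun, a transcription factor of the axotomy response, and Cacna2d1, a calcium channel subunit, differed by 0.01 and 0.02. Atf3 overlapped, with 6.43, 6.77 and 5.70 in contralateral against 5.91, 7.27 and 7.12 in sham arrays, and 11.60, 11.81 and 11.72 in SNI arrays. The list mean was 5.20, 5.12 and 5.14 in contralateral, 5.59, 5.66 and 5.47 in sham and 8.66, 9.01 and 8.72 in SNI arrays, so the contralateral arrays lay below the sham arrays without overlap. The median difference over the list was -0.14, against -0.01 over all genes, and it stayed between -0.19 and -0.09 when any 1 of the 6 arrays was left out. Sham replicate 2, with the lowest muscle mean, had the highest injury list mean of the sham arrays. Whether admixed muscle has a part in the injury list was not tested.

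The 250 bases before the start sites of Vip and Gal are shown because in both neuropeptide genes the arrays of contralateral, sham and SNI ganglia were separate and the window holds the motif searched. They are RefSeq sequence of build GRCr8, for Vip at chr1:44470230-44470479 on the + strand and for Gal at chr1:210084573-210084822 on the - strand, written 5′ to 3′ in the direction of the gene. Capitals mark TGACG, searched on both strands, the half-site of the cAMP response element, which lies in 18.2% of 33469 promoter windows of this length. The window of Npy, whose arrays were separate too, held no match, and a match describes letters only.
Vip: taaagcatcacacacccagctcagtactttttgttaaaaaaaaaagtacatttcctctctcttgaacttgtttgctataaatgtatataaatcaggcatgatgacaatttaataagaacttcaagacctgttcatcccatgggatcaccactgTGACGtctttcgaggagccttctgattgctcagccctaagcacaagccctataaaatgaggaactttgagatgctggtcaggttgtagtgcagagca
Gal: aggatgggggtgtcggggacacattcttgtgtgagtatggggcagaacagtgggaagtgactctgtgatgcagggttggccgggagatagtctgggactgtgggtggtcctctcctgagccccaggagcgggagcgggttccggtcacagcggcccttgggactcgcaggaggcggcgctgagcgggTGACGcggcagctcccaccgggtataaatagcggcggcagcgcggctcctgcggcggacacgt

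**Figure D2:**
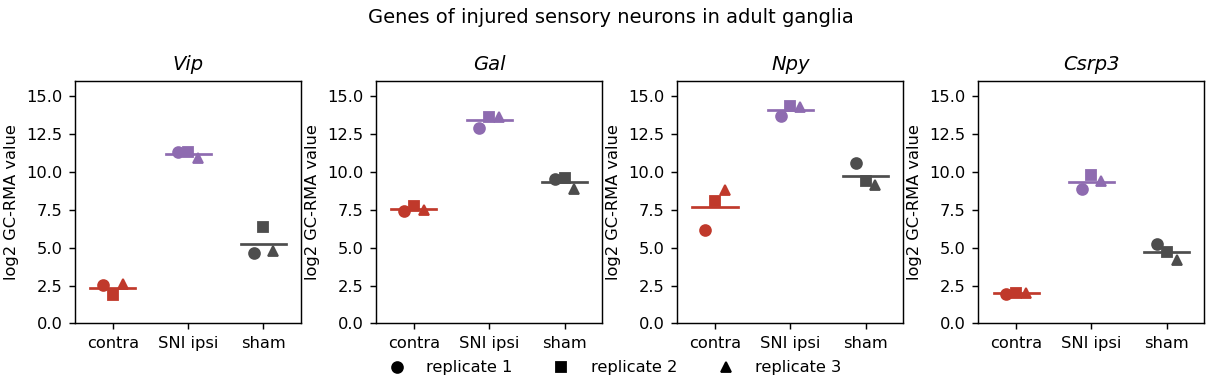
Log2 GC-RMA values (vertical axis) of Vip, Gal, Npy and Csrp3 in adult contralateral, SNI ipsilateral and sham arrays (horizontal axis). Each symbol is 1 pool, shaped by replicate number, and each bar a group mean. The contralateral arrays lie below the sham arrays for every gene, and the SNI arrays lie above both, at 8.87 or more.

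Chemokines, the secreted proteins that draw leukocytes, held the named gene with the smallest p of the 16-array fit. Ccl21 (1378015_at), which draws lymphocytes and dendritic cells through the receptor Ccr7, had values of 3.26, 3.43 and 3.45 in contralateral arrays against 6.59, 5.64 and 6.31 in sham arrays. The groups did not overlap, and the log2 difference was -2.80 (SE 0.43, unadjusted p = 3.88e-05 and adjusted p = 0.98 in limma). The contralateral values lie near those of the young arrays, 3.02 to 3.28, so the size of the difference is not exact. With the spread from the 9 adult arrays the unadjusted p from limma was 0.00102, larger than that of Csrp3 or Gal in the same fit, and with the 6 arrays alone it was 7.74e-05. In the SNI ipsilateral arrays Ccl21 had 4.23, 6.46 and 5.69, a range that includes sham values. When SNI ipsilateral replicate 1 was left out of the fit, which changes only the spread, its adjusted p was 0.00715. Cxcl13 (1398390_at), which draws B lymphocytes, had 4.63, 4.91 and 2.87 in contralateral against 5.69, 6.60 and 5.72 in sham arrays (log2 difference -1.87, SE 0.50, unadjusted p = 0.00309 in limma). The third contralateral array was far below the other two, and without it the difference was -1.23. Cxcl12, the ligand of Cxcr4, and Cxcl16, the ligand of Cxcr6, were closer, with log2 differences of -0.76 and -0.59 (unadjusted p = 0.00989 and 0.0205 in limma), and their arrays did not overlap, though without contralateral replicate 2 the difference of Cxcl16 was -0.36.

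Of the 34 chemokine and cytokine genes measured, these 4 were at unadjusted p under 0.05, all lower, and 1 more, Ccl7, had all contralateral arrays below all sham arrays. Over all genes 1.97% were lower by that threshold and 2.86% had all contralateral arrays below. The median difference was -0.03, with 17 genes on each side of 0, but only 9 of the 34 had a mean above 5, and over the members kept by the filter on low values the median was -0.43. The list mean was 3.75, 3.70 and 3.72 in contralateral against 3.98, 3.98 and 4.07 in sham arrays, which did not overlap. The inflammatory cytokines Il1b, Il6 and Tnf differed by -0.07, 0.05 and 0.03. Markers of the lymphocytes that Ccl21 and Cxcl13 attract were near background: all 17 T and B lymphocyte genes measured had means of at most 5, and the list mean was 2.59 to 2.66 in contralateral and 2.61 to 2.68 in sham arrays.

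Macrophage genes were the list with the most members at unadjusted p under 0.05. Of 26 measured, 7 were lower and 0 higher by that threshold, 12 had all contralateral arrays below all sham arrays, and 23 of 26 differences were below 0. Over all genes 1.97% were lower and 0.591% higher, 2.86% had all contralateral arrays below, and 7342 of 14217 differences were below 0. The median was -0.68, and it ranged from -0.90 to -0.49 when 1 array was left out. Adgre1 (1381311_at), an adhesion receptor that marks rat and mouse macrophages, had 5.83, 6.21 and 5.53 in contralateral against 7.39, 6.18 and 7.51 in sham arrays (log2 difference -1.17, SE 0.37, unadjusted p = 0.00827 in limma). Sham replicate 2 lay within the contralateral range and the other sham arrays above it. Lyz2 (1370154_at), lysozyme, was strongly expressed, with 11.41, 11.71 and 11.62 in contralateral against 12.74, 11.97 and 12.44 in sham arrays, which did not overlap (log2 difference -0.80, SE 0.29, unadjusted p = 0.0167 in limma). Folr2, a folate receptor of resident macrophages, had 2.97, 2.96 and 2.39 in contralateral against 4.29, 3.29 and 4.52 in sham arrays.

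The other macrophage genes at unadjusted p under 0.05 were Ptprc (the leukocyte antigen CD45), the Fc receptor chain Fcer1g, its adaptor relative Tyrobp and the complement gene C1qc, with log2 differences of -0.95 (-0.59 without sham replicate 3), -0.92, -0.69 and -1.50. Csf1r, the receptor for the macrophage growth factor CSF1, differed by -0.95 (unadjusted p = 0.0543 in limma), with no overlap between 8.24, 8.51 and 7.63 in contralateral and 9.26, 8.54 and 9.44 in sham arrays. The list mean was 5.21, 5.36 and 5.25 in contralateral against 6.05, 5.51 and 6.08 in sham arrays, and 6.92, 7.36 and 7.39 in SNI arrays. Sham replicate 2, lowest in muscle and blood genes, was thus also the sham array nearest to the contralateral arrays in macrophage genes, and whether admixed tissue has a part in this was not tested. In such bulk RNA, fewer macrophages and less RNA per macrophage cannot be told apart. Among the named genes were others of leukocytes that stood lower: Arhgdib, a gene abundant in leukocytes, had 6.57, 6.49 and 7.01 in contralateral against 8.29, 7.47 and 7.73 in sham arrays (log2 difference -1.14, unadjusted p = 0.000608 in limma). Gmfg, an actin regulator of leukocytes, differed by -0.96 and Pycard, the inflammasome adaptor ASC, by -1.29 (unadjusted p = 0.00197 and 0.00402 in limma), each without overlap. Among named genes not taken as leukocyte genes, Rnase4, a secreted ribonuclease, had 5.88, 6.28 and 5.74 in contralateral against 8.36, 6.67 and 8.20 in sham arrays (log2 difference -1.78, unadjusted p = 0.00225 in limma), and again sham replicate 2 was nearest to the contralateral arrays. Slfn2, a Schlafen protein of leukocytes, had 3.57, 4.57 and 4.71 in contralateral against 5.67, 5.48 and 6.57 in sham arrays (log2 difference -1.62, unadjusted p = 0.0128 in limma).

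MHC class II molecules present peptides to CD4+ T cells and are carried by macrophages and dendritic cells. Of the 8 class II genes measured, 6 had all contralateral arrays below all sham arrays, where 2.86% of all genes did. RT1-Ba (1377334_at), a class II alpha chain, had 8.33, 7.58 and 7.86 in contralateral against 9.53, 9.02 and 8.99 in sham arrays (log2 difference -1.26, SE 0.55, unadjusted p = 0.044 in limma). RT1-Da (1370883_at), the alpha chain of the other main rat class II molecule, had 9.04, 9.20 and 9.21 in contralateral against 11.03, 9.85 and 10.30 in sham arrays (log2 difference -1.24, SE 0.62, unadjusted p = 0.0693 in limma). Both sets of sham arrays lay below the SNI arrays, which had 10.82, 11.13 and 12.01 for RT1-Ba and 11.80, 12.55 and 12.84 for RT1-Da. RT1-Db1, the beta chain that pairs with RT1-Da, differed by -1.28, RT1-DMb, a subunit of the peptide exchange factor, by -0.95, and the invariant chain Cd74 by -0.58. Ciita, the transactivator of class II genes, differed by 0.03 and RT1-Bb by 0.31. The list median was -0.77, between -0.98 and -0.63 when 1 array was left out. In the 16-array fit 1 of 8 genes was at unadjusted p under 0.05, against 4 with the spread of the 9 adult arrays, all lower. Over all genes 1.97% were lower in the 16-array fit and 2.45% with the 9 adult arrays.

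The promoter windows of 3 class II genes are shown because their values separated the groups together. Each is 250 bases of RefSeq sequence of build GRCr8 before the start site, at chr20:4576807-4577056 (+ strand) for RT1-Ba, chr20:4515165-4515414 (+ strand) for RT1-Da and chr20:4560163-4560412 (- strand) for RT1-Db1. Capitals mark CTGATTGG, searched on both strands, which is the core of the Y box of class II promoters. It was present once in each of these windows and in 3.19% of all 33469 windows of this length, and the match is a description of the sequence.
RT1-Ba: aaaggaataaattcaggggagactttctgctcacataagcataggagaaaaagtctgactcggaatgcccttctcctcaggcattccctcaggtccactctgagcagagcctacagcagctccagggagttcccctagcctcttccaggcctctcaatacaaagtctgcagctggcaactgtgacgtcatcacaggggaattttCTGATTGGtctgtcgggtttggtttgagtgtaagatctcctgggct
RT1-Da: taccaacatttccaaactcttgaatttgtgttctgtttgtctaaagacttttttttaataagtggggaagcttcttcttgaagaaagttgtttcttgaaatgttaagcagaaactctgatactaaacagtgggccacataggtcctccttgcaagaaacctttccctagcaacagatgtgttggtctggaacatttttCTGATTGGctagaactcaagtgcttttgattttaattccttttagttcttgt
RT1-Db1: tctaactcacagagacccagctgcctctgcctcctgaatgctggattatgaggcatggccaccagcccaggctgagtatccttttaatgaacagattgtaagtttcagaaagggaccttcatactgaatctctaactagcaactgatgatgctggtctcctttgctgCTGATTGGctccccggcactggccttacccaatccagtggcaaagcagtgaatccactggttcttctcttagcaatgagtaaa

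**Figure D3:**
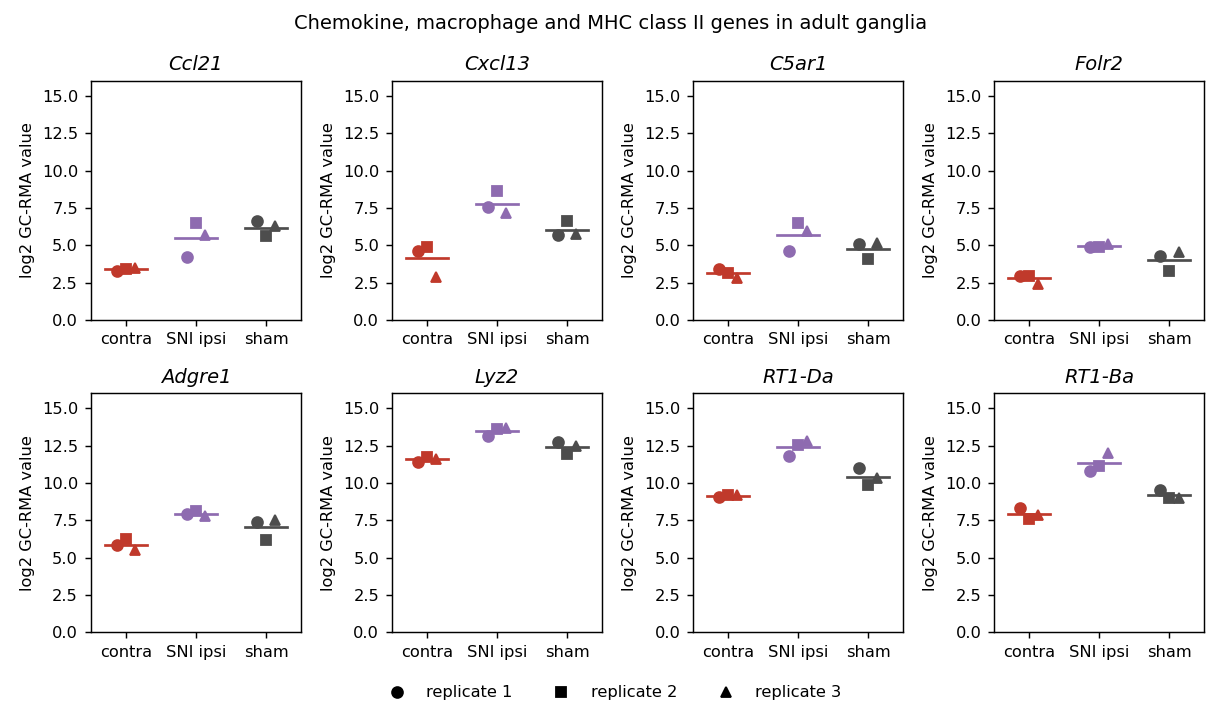
Log2 GC-RMA values (vertical axis) of 8 chemokine, complement receptor, macrophage and MHC class II genes in adult contralateral, SNI ipsilateral and sham arrays (horizontal axis). Each symbol is 1 pool and each bar a group mean. Contralateral and sham arrays of Ccl21 are separated by more than a log2 of 2, and those of Adgre1 overlap at sham replicate 2 (6.18).

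The interferon response list, genes switched on by interferons, had 21 of 24 differences below 0 (7342 of 14217 over all genes), a median of -0.49, 3 genes lower and 0 higher at unadjusted p under 0.05. By that threshold 1.97% of all genes were lower and 0.591% higher. Tap1, the peptide transporter of MHC class I loading, had 4.67, 4.95 and 4.75 in contralateral against 6.03, 5.64 and 5.91 in sham arrays, which did not overlap (log2 difference -1.07, unadjusted p = 0.0317 in limma). Bst2 (tetherin, an antiviral membrane protein) differed by -0.81 (-0.44 without sham replicate 3) and the transcription factor Irf1 by -0.71 (-0.44 without sham replicate 1). Without sham replicate 3 the list median was -0.13. The interferon list mean was 6.63, 6.82 and 7.24 in contralateral and 6.89, 7.44 and 7.88 in sham arrays, so the groups overlapped. In the complement and acute phase list 4 of 19 genes were lower at unadjusted p under 0.05 and 0 higher, against 1.97% and 0.591% of all genes. C5ar1, the receptor for the complement fragment C5a, had 3.43, 3.14 and 2.79 in contralateral against 5.05, 4.05 and 5.12 in sham arrays (log2 difference -1.62, unadjusted p = 0.00532 in limma). Complement C3 had 2.67, 4.50 and 2.56 in contralateral against 5.12, 4.15 and 4.85 in sham arrays, which overlapped. Lbp, which binds bacterial lipopolysaccharide, had 2.17, 2.18 and 2.25 in contralateral against 4.15, 2.20 and 3.08 in sham arrays (log2 difference -0.94, and -0.44 without sham replicate 1). Cfd, complement factor D, which is also an adipocyte product, had 4.55, 4.15 and 4.03 in contralateral against 7.72, 4.56 and 6.85 in sham arrays. The defining adipocyte genes Adipoq (adiponectin) and Plin1 (perilipin) lay at 2.21 or less in all 6 arrays, and Fabp4, the fatty acid carrier of adipocytes and endothelium, had 5.15, 3.39 and 5.11 in contralateral against 8.02, 3.46 and 8.55 in sham arrays. The complement list median was -0.33, and -0.06 without sham replicate 3. Its list mean was 5.83, 6.29 and 6.00 in contralateral and 6.74, 6.12 and 6.86 in sham arrays, which overlapped.

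Genes of connective tissue and vessels were lower in contralateral arrays too. The highest list means were in sham replicates 1 and 3, the sham pools that carried most muscle RNA. Of 24 fibroblast and matrix genes 23 had differences below 0 (7342 of 14217 over all genes), with a median of -0.43, but only 2 were at unadjusted p under 0.05. Both were lower, as were 1.97% of all genes by that threshold. Postn, the matrix protein periostin, had 5.47, 6.15 and 6.62 in contralateral against 8.24, 6.78 and 9.88 in sham arrays (log2 difference -2.22, SE 0.87, unadjusted p = 0.0261 in limma, and -1.43 without sham replicate 3). Fmod, fibromodulin, a collagen-binding proteoglycan, had 4.48, 4.49 and 5.40 in contralateral against 7.96, 5.44 and 7.52 in sham arrays (log2 difference -2.18, SE 0.83, unadjusted p = 0.0231 in limma). For both genes sham replicate 2 lay close to the highest contralateral array and the other sham arrays well above. The list mean was 8.99, 9.59 and 9.71 in contralateral and 9.97, 9.36 and 10.91 in sham arrays, so the groups overlapped. Leaving out sham replicate 3 brought the list median to -0.04 and leaving out sham replicate 2 to -0.74. The skeletal muscle list itself had 0 of 18 genes at unadjusted p under 0.05 and a median of -0.60, which was -3.14 without sham replicate 2 and 1.00 without sham replicate 3. Single muscle genes held the widest difference of the whole comparison: Actn2, the alpha-actinin of muscle, had 2.51, 2.43 and 2.55 in contralateral against 7.94, 2.47 and 7.90 in sham arrays (log2 difference -3.61, unadjusted p = 0.0642 in limma), at background in sham replicate 2 and in all contralateral arrays. Dpt, dermatopontin, a matrix protein of connective tissue, showed the same order of sham arrays, with 3.67, 4.22 and 4.03 in contralateral against 6.82, 4.26 and 6.79 in sham arrays at 1 Affy_ID, where the groups did not overlap. At its other Affy_ID it had 6.60, 7.56 and 7.15 in contralateral against 9.47, 7.37 and 9.76 in sham arrays, which overlapped. The part of admixed muscle or sheath in the matrix differences was not tested.

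Among 20 genes of endothelium, pericytes and smooth muscle, 19 had differences below 0 (7342 of 14217 over all genes) and 5 were lower at unadjusted p under 0.05, with a median of -0.47 (-0.77 without sham replicate 2). By that threshold 1.97% of all genes were lower. Tie1 and Tek, receptors of the angiopoietin system of endothelium, had log2 differences of -0.43 and -0.44 (unadjusted p = 0.00963 and 0.0234 in limma) and did not overlap, while Eng, an endothelial co-receptor of the TGF-beta family, differed by -0.73 and overlapped. The nearest arrays were 5.07 in contralateral and 5.08 in sham for Tie1, and 7.63 and 7.66 for Tek. The lowest sham array was replicate 1 for Tie1 and replicate 2 for Tek. Without sham replicate 3 Tie1 differed by -0.28 and Eng by -0.46. Acta2 and Myh11, the actin and myosin of smooth muscle, differed by -1.12 (-1.68 without sham replicate 2) and -1.13 (-0.67 without sham replicate 1), and sham replicate 2 had 8.27 for Acta2, within the contralateral range of 7.84 to 8.97. The list mean was 6.36, 6.51 and 6.35 in contralateral and 7.16, 6.27 and 7.47 in sham arrays. Of 14 genes of meninges and perineurium, the coverings of ganglion and nerve, 2 were lower at unadjusted p under 0.05, against 1.97% of all genes. Aldh1a2, which makes retinoic acid, had 2.67, 2.55 and 2.88 in contralateral against 3.75, 3.76 and 3.75 in sham arrays (log2 difference -1.05, unadjusted p = 0.0119 in limma). Slc47a1, a cation transporter, had 4.46, 5.47 and 5.94 in contralateral against 6.98, 6.54 and 7.12 in sham arrays. For these 2 genes every sham array, replicate 2 included, lay above every contralateral array.

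**Figure D4:**
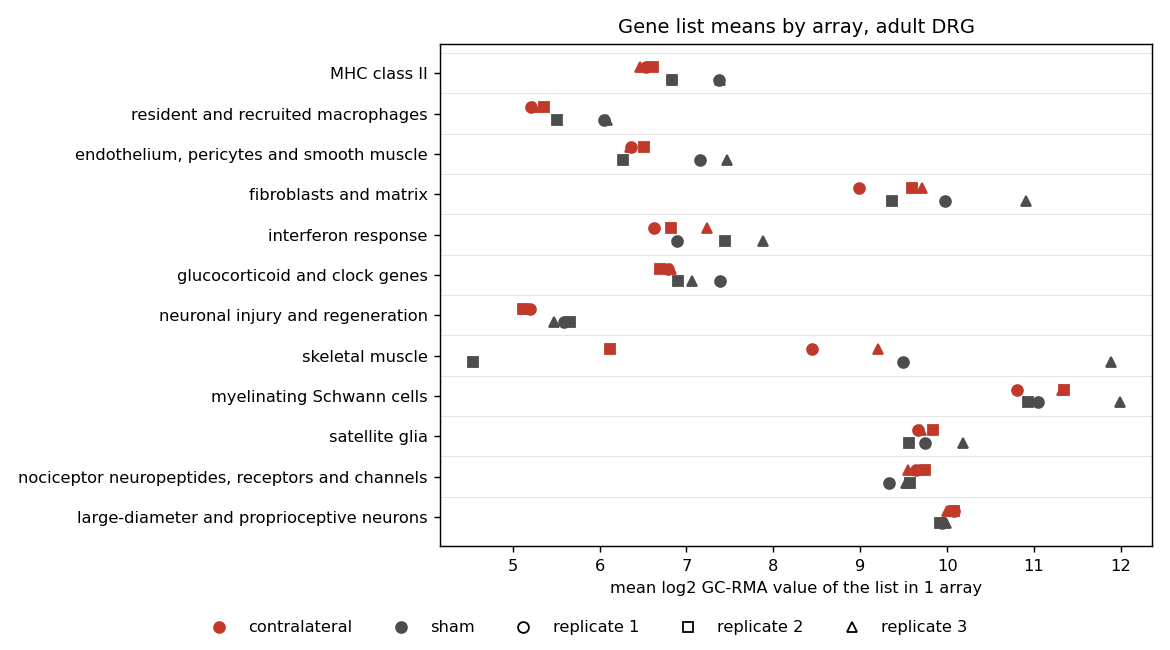
Mean log2 GC-RMA value over each gene list (horizontal axis) in each adult contralateral (upper row of a list) and sham array (lower row), shaped by replicate number. Skeletal muscle spans 4.54 to 11.89 across the 6 arrays, injury, macrophage and MHC class II means lie lower in all contralateral than in all sham arrays, and vessel and matrix means overlap at sham replicate 2. Interferon means overlap too, with contralateral replicate 3 (7.24) above sham replicate 1 (6.89).

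The clock output gene Dbp (1387874_at), a transcription factor whose RNA swings through the day, had 6.30, 6.60 and 5.57 in contralateral against 8.43, 7.60 and 6.87 in sham arrays (log2 difference -1.48, SE 0.42, unadjusted p = 0.00485 in limma). Bhlhe40, a repressor in the same circuit, had 5.08, 4.16 and 4.07 in contralateral against 6.36, 5.37 and 5.47 in sham arrays (log2 difference -1.30, SE 0.41, unadjusted p = 0.00893 in limma). The groups did not overlap for either gene, and the SNI arrays had 7.12, 7.03 and 6.73 for Dbp and 5.57, 5.54 and 4.78 for Bhlhe40. Nr1d1, the nuclear receptor REV-ERB alpha, differed by -0.87 (unadjusted p = 0.0226 in limma, and -0.56 without sham replicate 1) and overlapped, at levels of at most 3.58. The core clock genes Clock and Bmal1 differed by 0.14 and -0.10, and the period genes Per1, Per2 and Per3 by -0.38, -0.40 and -0.37. The glucocorticoid targets Fkbp5 and Tsc22d3 differed by -0.12 and -0.07. Of the 22 clock and glucocorticoid genes, 3 were lower and 0 higher at unadjusted p under 0.05, with a median of -0.19 (-0.09 without sham replicate 1). By that threshold 1.97% of all genes were lower and 0.591% higher. The list mean was 6.79, 6.69 and 6.82 in contralateral against 7.39, 6.90 and 7.06 in sham arrays, and for the hour of collection of each pool no source was at hand.

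The Bhlhe40 window, 250 bases at chr4:143174200-143174449 (+ strand, RefSeq, GRCr8), is shown because clock factors bind E-boxes. Capitals mark CACGTG, an E-box searched on both strands, which was in 5.59% of all 33469 windows and not in that of Dbp.
Bhlhe40: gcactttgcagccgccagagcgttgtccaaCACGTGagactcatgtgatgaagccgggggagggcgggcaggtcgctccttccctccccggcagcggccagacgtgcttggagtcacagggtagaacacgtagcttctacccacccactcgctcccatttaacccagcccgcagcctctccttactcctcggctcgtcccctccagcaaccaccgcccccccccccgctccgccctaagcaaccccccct

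Outside the immune and matrix lists, some of the lower named genes with a small unadjusted p were of varied function. Rab13, a small GTPase of cell junctions, had 5.60, 6.14 and 5.15 in contralateral against 6.64, 6.47 and 7.11 in sham arrays (log2 difference -1.11, unadjusted p = 0.000617 in limma). Rpp14, a subunit of ribonuclease P, and Anp32a, a histone-binding phosphoprotein, had smaller differences of -0.47 and -0.39 (unadjusted p = 0.00105 and 0.00241 in limma) at levels between 8.58 and 10.60, without overlap. Stk17b, a kinase of lymphocytes and other cells, had 4.30, 4.13 and 4.23 in contralateral against 5.48, 4.59 and 5.61 in sham arrays.

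Among the named genes higher in contralateral ganglia, Ppp1r3f (1374510_at), a glycogen-targeting subunit of protein phosphatase 1, had the smallest unadjusted p of the 16-array fit. It had 7.23, 7.15 and 7.22 in contralateral against 6.66, 6.62 and 6.76 in sham arrays (log2 difference 0.52, SE 0.095, unadjusted p = 0.000174 in limma). The SNI ipsilateral arrays had 6.82, 6.69 and 6.70, below the contralateral arrays. Vwa8, a mitochondrial ATPase, had 9.53, 9.67 and 9.58 in contralateral against 8.52, 8.95 and 9.19 in sham arrays (log2 difference 0.71, unadjusted p = 0.00154 in limma). Asxl3, a Polycomb-associated protein of neurons, had 5.96, 5.35 and 5.53 in contralateral against 4.22, 5.19 and 4.35 in sham arrays (log2 difference 1.03, unadjusted p = 0.00228 in limma). For these 3 genes the arrays did not overlap. Further genes with small, separate differences were Dgkq (a diacylglycerol kinase, 0.37), Dkk3 (a secreted protein of the Dickkopf family, 0.46), Slc25a27 (a mitochondrial uncoupling protein of neurons, 0.60) and Cdk8 (a kinase of the Mediator complex, 0.32). Aff4, a scaffold of the super elongation complex, had 8.50, 8.62 and 8.42 in contralateral against 7.42, 7.83 and 7.78 in sham arrays (log2 difference 0.84, unadjusted p = 0.0167 in limma). Differences of similar size in Cstf2 (an RNA 3′ end processing factor, 1.10), Lrrc8b (a subunit of volume-regulated anion channels, 1.03) and Rims2 (an active zone protein of synapses, 0.84) rested on sham replicate 1, which had 5.31, 7.19 and 5.25 where the other sham arrays had at least 7.23, 8.77 and 6.91.

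The neuronal lists had medians just above 0, close to the median of -0.01 over all genes and 0.02 over all Affy_IDs. Of 22 nociceptor genes 17 were above 0, where 6855 of 14217 genes and 18454 of 31042 Affy_IDs were. The nociceptor median was 0.06, with 0 genes at unadjusted p under 0.05 in either direction. Calca (CGRP), Scn10a (the sodium channel Nav1.8) and Tac1 (substance P) differed by 0.06, 0.04 and -0.23. Scn9a, the sodium channel Nav1.7, differed by 0.91 (unadjusted p = 0.142 in limma), with 10.09 in sham replicate 1 and 12.36 to 12.76 in the other arrays of both groups. Scn1a had 11.19, 11.23 and 11.01 in contralateral against 9.87, 10.95 and 10.78 in sham arrays (log2 difference 0.61, unadjusted p = 0.0348 in limma, and 0.28 without sham replicate 1). Of 19 genes of large-diameter neurons Scn1a alone was at unadjusted p under 0.05, where 0.591% of all genes were higher and 1.97% lower. Scn1a and Calb1, a calcium-binding protein, had all contralateral arrays above all sham arrays, as had 2.06% of all genes. Slc17a6, the glutamate transporter VGLUT2 of synaptic vesicles, had 11.53, 11.75 and 11.54 in contralateral against 11.23, 11.44 and 11.42 in sham arrays, a small difference without overlap (0.24, SE 0.097, unadjusted p = 0.0287 in limma). Of 22 genes of GABA, glutamate and opioid signalling 18 were above 0, with a median of 0.08, and of 22 potassium and pacemaker channels 0 were at unadjusted p under 0.05.

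Growth factor signals were split. Igf1, insulin-like growth factor 1, which macrophages and stromal cells make, had 8.80, 9.49 and 9.29 in contralateral against 9.99, 9.40 and 10.67 in sham arrays (log2 difference -0.83, unadjusted p = 0.0304 in limma, and -0.50 without sham replicate 3), while its receptor Igf1r had 7.88, 8.16 and 8.07 in contralateral against 6.90, 7.85 and 7.73 in sham arrays (log2 difference 0.54, unadjusted p = 0.0452 in limma, and 0.25 without sham replicate 1). Of 22 cell cycle genes 10 differed above 0 and 12 below, with a median of -0.01. Top2a and Bub1, a topoisomerase and a spindle checkpoint kinase, were the members at unadjusted p under 0.05, both lower, where 1.97% of all genes were lower. They differed by -1.10 and -0.75 (unadjusted p = 0.0136 and 0.0151 in limma), with overlapping arrays, and by -0.70 and -0.45 without sham replicate 3. Ccnb1, cyclin B1, was the member without overlap and stood higher in contralateral, by 0.63 (0.20 without sham replicate 1). Glia showed little: of 14 satellite glia genes and 14 genes of myelinating Schwann cells 0 were at unadjusted p under 0.05 and 0 had separate arrays, with medians of -0.12 and -0.20. Of 24 immediate early genes 1 was lower at unadjusted p under 0.05, where 1.97% of all genes were. It was Ier3, a gene of the early stress response, with 7.66, 8.01 and 7.39 in contralateral against 8.57, 8.09 and 8.51 in sham arrays. Heat shock proteins, cholesterol synthesis and potassium channel lists had medians of -0.11, -0.08 and 0.02 and 0 genes at unadjusted p under 0.05. Repair Schwann cells, neutrophils and mast cells, adipocytes, and matrix proteases had medians of 0.04, -0.01, -0.01 and -0.07. Among them 1 gene, Cfd of the adipocyte list, was lower at unadjusted p under 0.05, where 1.97% of all genes were.

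The neutrophil and mast cell list and the adipocyte list hold mostly low genes. In them 3 of 13 and 5 of 12 genes had a mean above 5, and over members kept by the filter on low values the medians were -1 and -0.56. S100a9 and S100a8, calcium-binding proteins of neutrophils and monocytes, differed by -1.91 and -1.50 (unadjusted p = 0.0834 and 0.178 in limma) with overlapping arrays. S100a9 had 8.83, 7.50 and 8.98 in contralateral against 11.20, 8.43 and 11.42 in sham arrays, in the same order within each group as the blood list mean. Whether blood in the pools has a part in this was not tested.

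The study selected 16 genes on these same arrays from those regulated by SNI, so their behaviour in the controls is not independent of that choice. Of the 15 measured here 1 was at unadjusted p under 0.05, C3 (log2 difference -1.46, unadjusted p = 0.0446 in limma), and 1, Mmp16, a membrane metallopeptidase, had all contralateral arrays below all sham arrays (5.36, 5.11 and 5.40 against 5.85, 5.41 and 5.66). The shares over all genes were 1.97% lower by that threshold and 2.86% with all contralateral arrays below. Ccl2, the main chemokine of monocytes, differed by -0.29, with 9.61, 9.78 and 9.31 in contralateral against 9.69, 9.97 and 9.90 in sham arrays. Serpina3n, Il6, Serpinb2 and Mmp3 lay at 2.47 or less in all 6 arrays , near the lowest values of the array.

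The young rats were operated on at 10 days of age, taken at 17 days and pooled by 4. They offer the same comparison in other arrays (2 contralateral, 3 sham). There 0 Affy_IDs passed the adjusted threshold and 697 (2.25%) were at unadjusted p under 0.05 in limma. Of the 427 Affy_IDs lower in adult contralateral arrays at unadjusted p under 0.05, 67.7% were also lower in young contralateral arrays, against 42.8% of all tested, and of the 198 higher ones 70.2% were higher, against 57.2%. These Affy_IDs were picked with a spread that includes the young arrays, so the young shares are not independent of the choice. All tested also holds Affy_IDs near the lowest values (the filter on low values kept 18540 of 31042), so the shares are not like with like. The young contralateral arrays differed from each other: the injury list mean was 6.78 in replicate 1 and 5.18 in replicate 2, against 6.32 and 7.59 in young SNI and 7.19, 7.90 and 6.18 in young sham arrays, so the arrays labelled young SNI and young sham overlapped. Whether these labels hold was not tested. With young contralateral replicate 1 alone the share lower was 56.6% (57.6% of all tested), and with replicate 2 alone 72.7% (39.1% of all tested), a split made after the values were seen. The MHC class II median was -0.77 in adult and -2.20 in young rats, the macrophage median -0.68 in adult and -0.72 in young rats, and the injury median -0.14 in adult and -0.89 in young rats. The vessel, clock and muscle lists did not lie on the same side, with medians of 0.02, 0.03 and 3.39 in young rats. Ccl21 was low in the young arrays of both groups (3.02 and 3.03 in contralateral, 3.28, 3.18 and 3.04 in sham). The adult difference minus the young difference was -2.66 for Ccl21 (unadjusted p = 0.0016 and adjusted p = 1 in limma). Over all Affy_IDs 0 passed the adjusted threshold for a difference between the ages, the smallest adjusted p was 0.157 and 424 (1.37%) were at unadjusted p under 0.05.

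**Figure D5:**
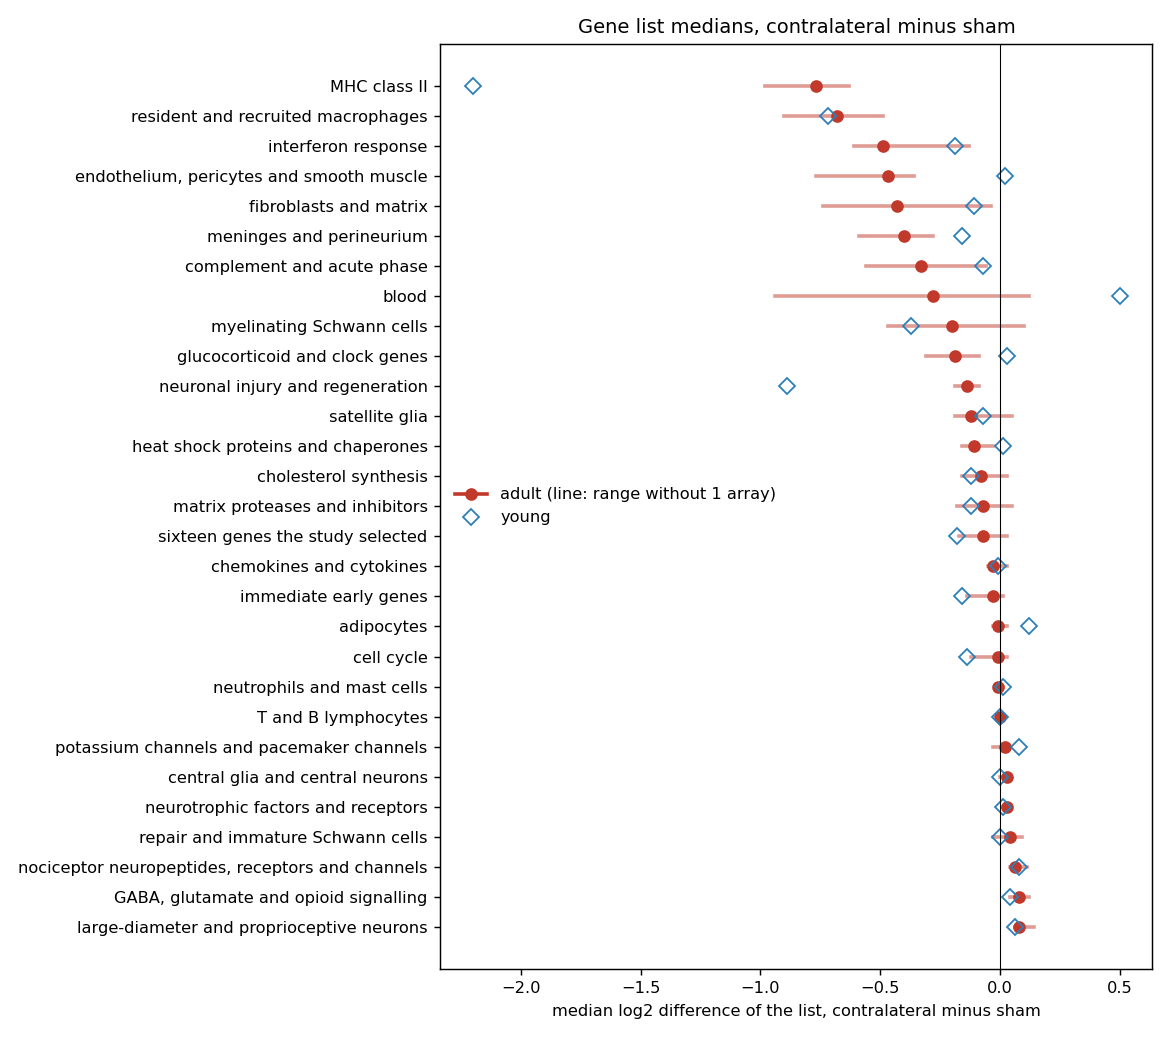
Median log2 difference, contralateral minus sham, over each gene list (horizontal axis): adult arrays as filled circles with a line for the range when 1 of the 6 arrays is left out, young arrays as open diamonds. MHC class II (-0.77) and macrophages (-0.68) lie lowest in adult rats, the nociceptor and large-diameter neuron lists lie just above 0, and the skeletal muscle list (-0.60, range -3.14 to 1.00) is not drawn.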

How the data were processed

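RNA of L4/L5 DRG pools was hybridised to Affymetrix rat whole-genome expression arrays, 1 pool per array. The deposited log2 values were made by the authors with GC-RMA, which corrects background by probe GC content, normalises between arrays and sums the probes of an Affy_ID, after they left out outlier arrays; they hold 2 decimals, and scanner intensities were not used here. Such values near the bottom of the scale are compressed, so low genes give inexact differences. The number of arrays limits the precision.

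Groups were taken from the labels. limma 3.58.1 in R 4.3.3 (lmFit, eBayes, Benjamini-Hochberg adjustment over 31042 Affy_IDs) was fitted to all 16 arrays with 6 group means, and the threshold was an adjusted p of 0.05. Lists used 1 Affy_ID per gene, that with the highest mean over the arrays. The fit was first tested on simulated data. The alternatives were other sets of arrays, an intensity trend, a robust prior, a filter (log2 above 4 in at least 2 arrays), array weights, quantile normalization, a replicate block, and each array left out. Contralateral and ipsilateral pools of equal replicate number deviated together from their group means (correlations 0.449, 0.445 and 0.362), a pairing read from the data and not from the labels; it does not join contralateral with sham pools.

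Named genes, with 1 symbol and 1 Affy_ID each, were the 12 per direction with the smallest unadjusted p and the 8 per direction with the largest difference at unadjusted p under 0.05, both among genes without overlap whose higher group mean was at least 5, up to 4 per list with the smallest p, and the 16 genes selected in the study. Further list members were named for their role or for separate arrays after their values were seen. All are picked by the comparison itself, so their values are a description. The members and the 30 lists were chosen with earlier results of these data known. Symbols came from GEO's annotation of the platform, and promoter windows from RefSeq tables matched by symbol, read with Python 3.11.15.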

Additional observations from a re-analysis of the deposited data

How the results depend on the processing

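Every count below is of Affy_IDs in adult contralateral minus sham. The count passing the adjusted threshold was 0 in the 16-array fit and in the alternatives that changed the prior, filter, weights, normalization or block, or used the 9 adult or 6 arrays alone. At unadjusted p under 0.05 the counts were 198 higher and 427 lower; they were 452 higher and 405 lower with the 6 arrays alone, 129 higher and 347 lower with the low filter, 464 higher and 855 lower with array weights, and 385 higher and 446 lower after quantile normalization, which also gave 1852 Affy_IDs with all contralateral arrays above all sham arrays. The cause was not tested. With 1 array left out, 0 to 7 passed the adjusted threshold, 95 to 893 were higher and 187 to 1629 lower. The lower count was 197 without contralateral replicate 1, 281 without contralateral replicate 3, 187 without sham replicate 1 and 1629 without sham replicate 2, and the higher count was 95 without sham replicate 1, 395 without sham replicate 2 and 893 without sham replicate 3, beside 587 lower, so that higher calls were the more frequent there and with the 6 arrays alone. Adjusted calls so gained were Nkd2 without sham replicate 2, 7 Affy_IDs without sham replicate 3 (4 with a symbol: Tmem101, Rcor2, Hhipl1 and Ism2), 1 without a symbol when contralateral replicate 3 was left out, and Ccl21 without SNI ipsilateral replicate 1. For the adult minus young difference, 0 passed in the 16-array fit, 1 with an intensity trend, and 0 to 136 with 1 array left out (136 when replicate 2 of the young contralateral arrays was dropped and 6 when replicate 1 was). Replicate numbers only name the contralateral and sham pools, which are different rats (correlations of deviations for equal numbers 0.057, 0.171 and 0.118); with a replicate block 0 passed, 228 were higher and 469 lower. With the 9 adult arrays and contralateral and ipsilateral pools of equal number as a random block, a fit chosen after seeing the data, 0 passed, 212 were higher and 450 lower. Of the list medians under all alternatives, 434 stayed within the spread between replicates and 16 moved beyond it. For single genes only the sign and the adjusted threshold were checked, and 0 of 1201 differences changed sign or passed. Those settings left out no array outside the contralateral and sham groups. Sizes did shift, for example from 1.10 to 0.39 for Cstf2 and from -2.22 to -1.43 for Postn.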
